A study of Mus musculus with 89 samples.

Results

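Krt1, Krt10, Lgals7, Sfn, Dsp and Perp are genes of differentiating and cell-cell attached keratinocytes, and they were taken by name as 6 of the 19962 targets of a mouse whole-transcriptome tag panel. All 6 passed the filter on low values, which 5087 targets passed. The data are a GeoMx spatial experiment on frozen sections of mouse squamous cell carcinoma that asks how neutrophils differ between regions of the tumour and after immunotherapy. Tags bound to RNA on the section were released by ultraviolet light from 89 chosen segments, all labelled neutrophil, and were sequenced. The segments lie on 3 slides, 1 for each stage: naive (before treatment), acute and relapse (both after treatment). By the authors' location words they fall into 7 classes: naive stroma (n = 15), naive interface with the tumour (n = 13), naive within the tumour (n = 14), acute stroma (n = 9), acute interface (n = 2), relapse stroma (n = 14) and relapse interface (n = 22).

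The drug, the animals, their strain and age, and the number of tumours are not given in the sources used here. The scan name of the naive slide reads UP HRass and that of the relapse slide DMBA Relapse, while the acute slide's scan is named treated and the slide with the relapse classes is also named treated. Stage, slide and any difference in how the tumours arose therefore cannot be told apart. Segments share slides, tissue pieces and animals, so p-values over segments are too small throughout, and they measure only the spread between these segments. A gap in the deposited coordinates split the segments into 14 tissue pieces (5 naive, 5 acute and 4 relapse), a grouping made here and not by the labels.

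In stratified epithelium, basal keratinocytes carry the keratin pair Krt5 and Krt14, and cells that leave the basal layer switch to the pair Krt1 and Krt10, which polymerise with each other into the filaments of the suprabasal layers. Desmosomes tie those filaments of neighbouring cells together: desmoplakin, the product of Dsp, links the junction's plaque to the keratins, and Perp, a p53-induced membrane protein, takes part in desmosome assembly. Lgals7 encodes galectin-7, a lectin of stratified epithelia, and Sfn encodes stratifin, the sigma member of a phosphoserine-binding adaptor family that is typical of keratinocytes and induced by p53.

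In RefSeq's GRCm38.p6 annotation Krt1 lies at chr15:101845426-101850786 and Krt10 at chr11:99385254-99397449, in the type II and type I keratin clusters. Lgals7 lies at chr7:28863796-28866285, Sfn at chr4:133600556-133602168, Dsp at chr13:38151294-38198577 and Perp at chr10:18845071-18857073, and all 6 are protein-coding. RefSeq promoter sequences matched 4 of the 6. The promoters of Krt10 and Dsp are shown because they belong to a differentiation keratin with medians of 0 at relapse and to the only gene of the 6 that passed a test below. They are the 250 bases before the 1 start site that the RefSeq promoter table gives for each gene, Krt10 at chr11:99389365-99389614 on the minus strand and Dsp at chr13:38151044-38151293 on the plus strand, and capitals mark 2 motifs on either strand. The start used for Krt10 lies inside the gene's annotated span given above, not at its end. The letters TATAAA are the core that general transcription factors bind near many start sites. Sp factors bind GGGCGG, which is known as the GC box.
Krt10: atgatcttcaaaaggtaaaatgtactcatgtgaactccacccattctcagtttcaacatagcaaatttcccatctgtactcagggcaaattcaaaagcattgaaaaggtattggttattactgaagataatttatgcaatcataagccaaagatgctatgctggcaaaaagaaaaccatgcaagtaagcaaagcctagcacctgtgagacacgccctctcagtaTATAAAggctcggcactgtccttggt
Dsp: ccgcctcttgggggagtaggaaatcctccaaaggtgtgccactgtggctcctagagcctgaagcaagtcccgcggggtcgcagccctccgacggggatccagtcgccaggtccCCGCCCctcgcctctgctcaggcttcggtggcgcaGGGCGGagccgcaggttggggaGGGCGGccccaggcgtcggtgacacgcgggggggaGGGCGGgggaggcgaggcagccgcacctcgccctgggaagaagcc
The Krt10 promoter holds 1 TATAAA, at bases -26 to -21, and is 39.6% G and C. The Dsp promoter holds no TATAAA but 4 GC boxes, the nearest at bases -45 to -40, and is 72.4% G and C. Of 32851 promoters of this length, 12.4% hold TATAAA and 32.7% hold GGGCGG on either strand, and the median G and C content is 52.4%. The promoters of Lgals7 (58.8% G and C) and Sfn (54.4%) hold 1 and 0 GC boxes and no TATAAA. The AP-1 factors' site, TGANTCA, is in none of the 4 and in 6.75% of all promoters. These are matches of letters only.

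The deposited signal multiplied by each segment's factor gives back tag counts, whose floor is 1. Counts above that floor summed to between 573 and 208675 per segment, with medians of 11327 in naive, 50391 in acute and 3939.5 in relapse, and levels are given below as counts above the floor per 10000 of them. At the median depth of each class, 1 count equals 0.546 per 10000 in naive interface and 2.80 in relapse interface, so a level of 0 means something different in each. Of the 534 values of the 6 genes, 240 (44.9%) were at the floor and 155 were above the segment's limit of quantitation, set from its negative probes. Levels of different genes are not compared, since each target has its own tags. Of the markers of the labelled neutrophils, Ly6g was above the limit in 6 of 89 segments, Csf3r in 4, S100a9 in 38 and S100a8 in 44, against 66 for Krt14 and 77 for the fibroblast gene Col1a1. The 15 neutrophil markers summed to a median of 7.56 per 10000 (0 to 53.9), but 2 of them were tested and 10.8% of their values were above the limit. The sum of the 6 genes described here had a median of 6.69 (0 to 178.8). These 2 sums are likewise not compared. In segments that hold several cell types, fewer cells of a type and less RNA per cell cannot be told apart.

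Dsp was the only gene of the 6 with a called difference: it was higher at the relapse interface than at the naive interface. The basal keratins Krt5 and Krt14 rose in both relapse classes against naive segments of the same location, Krt1 and Krt10 had no called difference, and the suprabasal pair made up a smaller share of these 4 keratins in relapse. Lgals7, Sfn and Perp had no called difference in any of 9 comparisons.

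**Figure D1:**
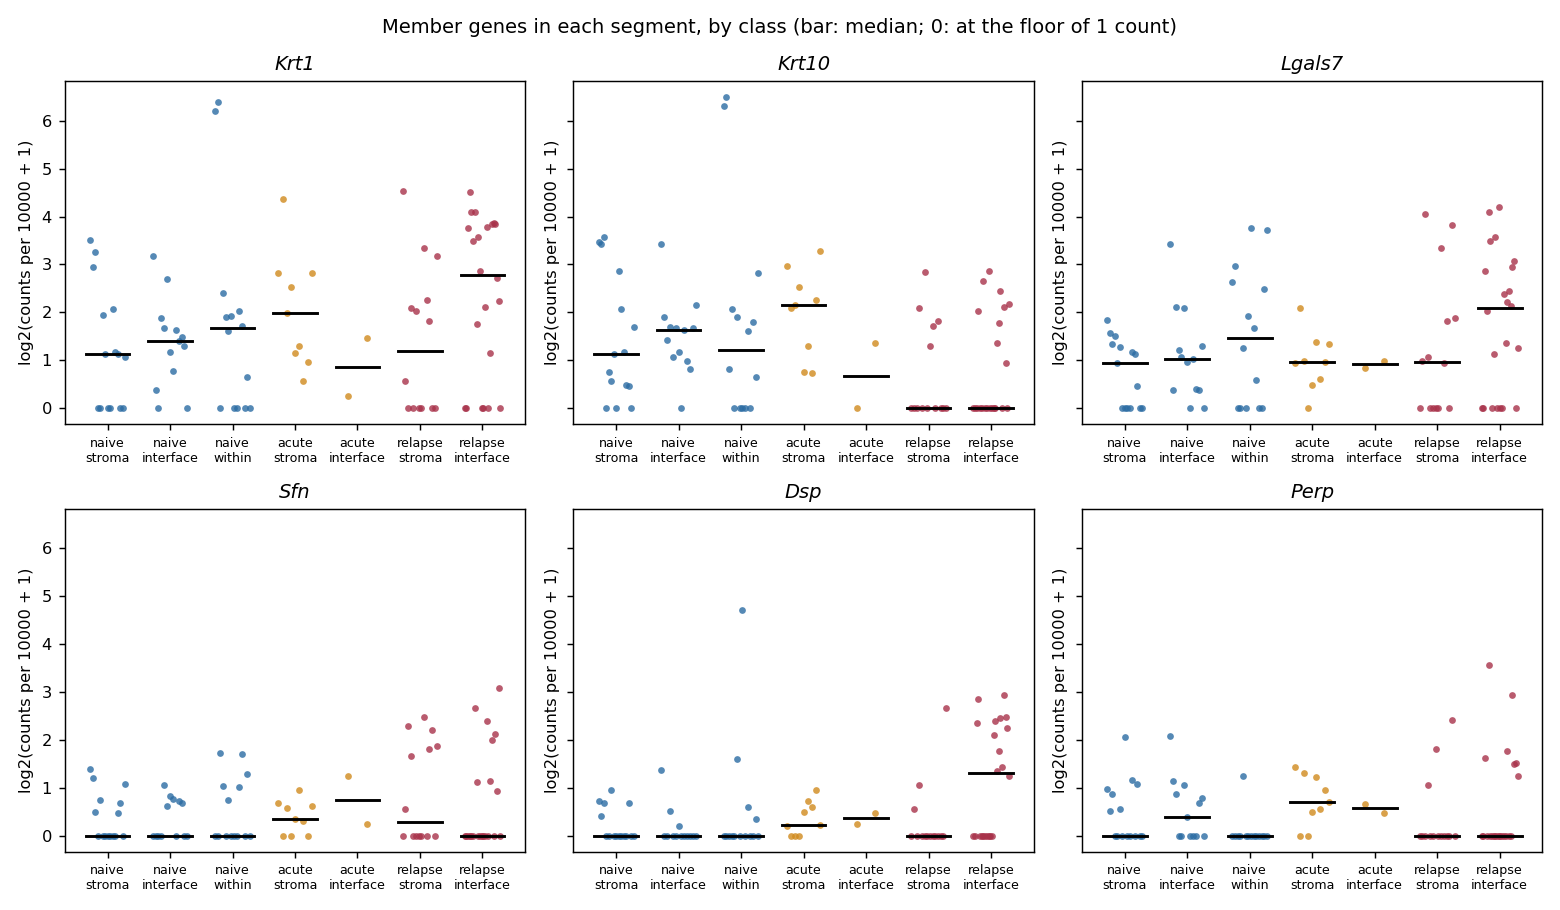
Level of each gene in every segment, as log2(counts above the floor per 10000 + 1), by class; each point is a segment, black bars are medians, and 0 is a count at the floor. Dsp medians are at 0 in every class except the acute ones and relapse interface, and Krt10 medians are at 0 in both relapse classes.

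Krt1, the type II keratin of suprabasal cells, had counts above the floor in 64 of 89 segments. Its level had a median of 1.18 per 10000 in naive stroma (0 to 10.4), 1.66 in naive interface (0 to 8.08) and 2.18 within naive tumour (0 to 82.5). In acute stroma it was above the floor in all 9 segments, with a median of 2.96 (0.479 to 19.6), and the 2 acute interface segments gave 0.199 and 1.79. The median was 1.51 in relapse stroma (0 to 22.1) and 5.89 in relapse interface (0 to 21.7), where 16 of 22 segments were above the floor. The ranges of all classes overlapped, and in the order of mean log2 levels, with relapse interface at the top and acute interface at the bottom, every step between neighbours was smaller than the spread between segments.

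Krt10, the type I partner of Krt1, had a different order across classes. Its median was 1.18 per 10000 in naive stroma (0 to 10.9), 2.11 in naive interface (0 to 9.70) and 1.42 within naive tumour (0 to 89.4). Acute stroma again had all 9 segments above the floor, with a median of 3.46 (0.671 to 8.72), and acute interface gave 0 and 1.59. In relapse the median was 0 in both classes, with a highest value of 6.20 in stroma and 6.23 in interface, and 5 of 14 and 9 of 22 segments were above the floor. Acute stroma therefore stood first in the order of mean log2 levels, and the relapse classes stood above acute interface only, with every step between neighbours smaller than the spread between segments.

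A few segments carried most of the keratin counts. The highest counts of both genes, 84 for Krt1 and 106 for Krt10, came from 1 naive stroma segment in naive piece 1 with 96548 counts. The 3 stroma segments of that piece pooled to 8.07 per 10000 for Krt1 and 10.3 for Krt10, while the 6 of naive piece 3 pooled to 0.450 and 0.525. The highest levels, 82.5 and 89.4 per 10000, came from a shallow segment within the tumour of the same piece, which had 1454 counts and 17 nuclei. That piece has 3 segments within the tumour. Another of them, with 1921 counts and 16 nuclei, had 72.9 and 78.1 per 10000. The remaining segment, with 796 counts and 6 nuclei, was at the floor for both genes.

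The share of Krt1 and Krt10 in the summed counts of Krt1, Krt10, Krt5 and Krt14 compares genes of 1 cell type within a segment. Its median was 50% in naive stroma (0% to 100%), 50% in naive interface (33.3% to 100%) and 33.3% within naive tumour (0% to 100%). Acute stroma had a median of 71.4% (34.1% to 87.5%), and the 2 acute interface segments had 3.70% and 68%. Relapse stroma had a median of 12.5% (0% to 75%) and relapse interface 11.6% (0% to 25%, in the 20 of 22 segments with counts). The lowest naive interface segment was above the highest relapse interface segment, while the stroma classes of the 2 stages overlapped. The naive extreme came from segments with 3 and 6 keratin counts, the relapse extreme from a segment with 8. Under 10 counts were present in 10 of 15 naive stroma, 5 of 13 naive interface and 8 of 14 within-tumour segments. With at least 10 counts, the median within naive tumour was 65.5% (n = 6). Naive interface then ran from 45.7% to 90.9% (n = 8) and relapse interface from 0% to 22.2% (n = 17).

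Pooled over segments, the share was 56.7% in naive (95% exact interval 53.7% to 59.6%). The acute share was 63.9% (59.9% to 67.8%), and the relapse share was 13.2% (11.04% to 15.7%). These intervals cover counting error only, not the spread between animals, and the share is given as a description with no test. Relapse segments were shallower, and taking off the floor of 1 lowers small counts by a larger part: with the floor counts included the shares were 55.8% in naive, 62.9% in acute and 18.6% in relapse. Leaving out each tissue piece in turn gave 58.1% to 61.9% in naive interface and 11.8% to 12.8% in relapse interface. Without naive piece 1 the share went from 57.5% to 44.8% in naive stroma and from 49.7% to 37.2% within naive tumour. Within naive tumour it went to 59.2% without naive piece 5. Naive piece 1 held 465 of the 626 Krt1 and Krt10 counts in naive, so the pooled naive share rests largely on that piece. In relapse stroma the share went from 16.3% to 31.1% without relapse piece 3, and naive piece 5 (23.1% of 52 counts) and relapse piece 4 (55% of 20 counts) differed from the rest of their stage. Acute piece 5 held 33.9% (74 counts of Krt1 and Krt10 and 144 of Krt5 and Krt14), against 51.9% to 87.4% in the other acute pieces, and the acute stroma share went from 66.7% to 82.6% without it.

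**Figure D2:**
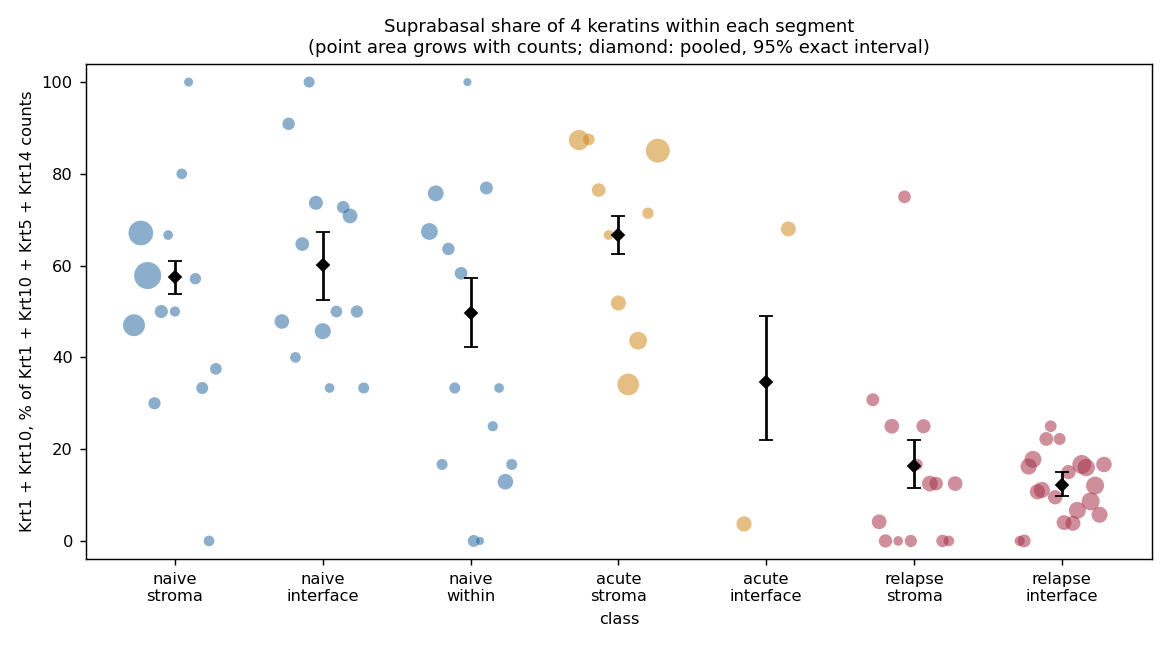
Share of Krt1 and Krt10 in the counts of Krt1, Krt10, Krt5 and Krt14, in percent, for each segment by class; point area grows with the segment's keratin counts, and diamonds are pooled shares with 95% exact intervals. Naive interface runs from 33.3% to 100% and relapse interface from 0% to 25%.

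The shares of the 2 suprabasal keratins were also taken apart. With Krt5 and Krt14, Krt10 alone made up 41.2% in naive (37.8% to 44.6%), 48.9% in acute and 3.65% in relapse (2.44% to 5.23%). For Krt1 alone the same shares were 37.8%, 44.8% and 10.3% (8.31% to 12.6% in relapse). Within the pair, Krt10 held 53.5% of the Krt1 and Krt10 counts in naive (49.5% to 57.5%), 54.1% in acute and 24.8% in relapse (17.1% to 33.8%), or 53.1%, 53.9% and 34.6% with the floor counts included. By piece the relapse value was lowest in relapse pieces 1 (16.4%) and 3 (26.1%), and was 54.5% of 11 counts in relapse piece 4. Krt5 and Krt14 themselves were higher in the relapse interface than in the naive interface by 3.23 (SE 0.336, adjusted p = 4.5e-14) and 2.57 (SE 0.406, adjusted p = 1.4e-06) on the log2(signal + 1) scale by limma.

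Lgals7 was above the floor in 62 of 89 segments. In the classes of more than 2 segments its medians ran from 0.923 per 10000 in naive stroma (0 to 2.60) to 3.26 in relapse interface (0 to 17.5), with 1.80 within naive tumour (0 to 12.6), and all classes overlapped. Sfn was above the floor in 42 segments, with medians from 0 to 0.273 in the same classes and a highest value of 7.48 in relapse interface. Perp was above the floor in 34 segments and reached 10.8 in relapse interface, but within naive tumour only 1 of 14 segments was above the floor. Acute stroma, the deepest class, had Perp above the floor in 7 of 9 segments (median 0.629, 0 to 1.70).

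Dsp was at the floor in most segments of every class except the acute ones and relapse interface. In naive interface 10 of 13 segments were at a count of 1 and the other 3 had a count of 2, at depths of 5831 to 66166 counts. In relapse interface 12 of 22 segments were above the floor, with counts of 2 in 4 segments, 3 in 6, 4 in 1 and 6 in 1, at depths of 573 to 14294 counts. The level was 0 to 1.62 per 10000 in naive interface (median 0) and 0 to 6.72 in relapse interface (median 1.49), so the ranges overlapped. Relapse stroma had 3 of 14 segments above the floor (0 to 5.35 per 10000, median 0) and naive stroma 5 of 15 (0 to 0.955, median 0), with the highest counts, 4, 6 and 7, in its 3 deepest segments. The highest level of all, 25.1 per 10000, was a count of 3 in a segment within naive tumour with 796 counts and 6 nuclei.

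Pooled over segments, Dsp had 24 counts above the floor in relapse interface (2.36 per 10000) and 3 in naive interface (0.0962 per 10000), a ratio of 24.6 with a 95% counting interval of 7.46 to 127.5. With the floor counts included the ratio was 8.83, from 46 and 16 counts, of which 22 and 13 are the floor itself. Against relapse stroma, with 4 counts (0.466 per 10000), the ratio was 5.07 (1.74 to 20.1), or 2.16 with the floor counts included. Each segment adds 1 floor count whatever its depth, and the depth leaves the floor out. A gene at the floor in every segment would therefore also give ratios above 1 here. The ratios with the floor included are thus no check on the size of the difference. Set against the basal keratins, Dsp made up 4.05% of the Dsp, Krt5 and Krt14 counts in naive interface (0.844% to 11.4%) and 4.11% in relapse interface (2.65% to 6.05%), so in this share no difference was detectable at this depth.

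**Figure D3:**
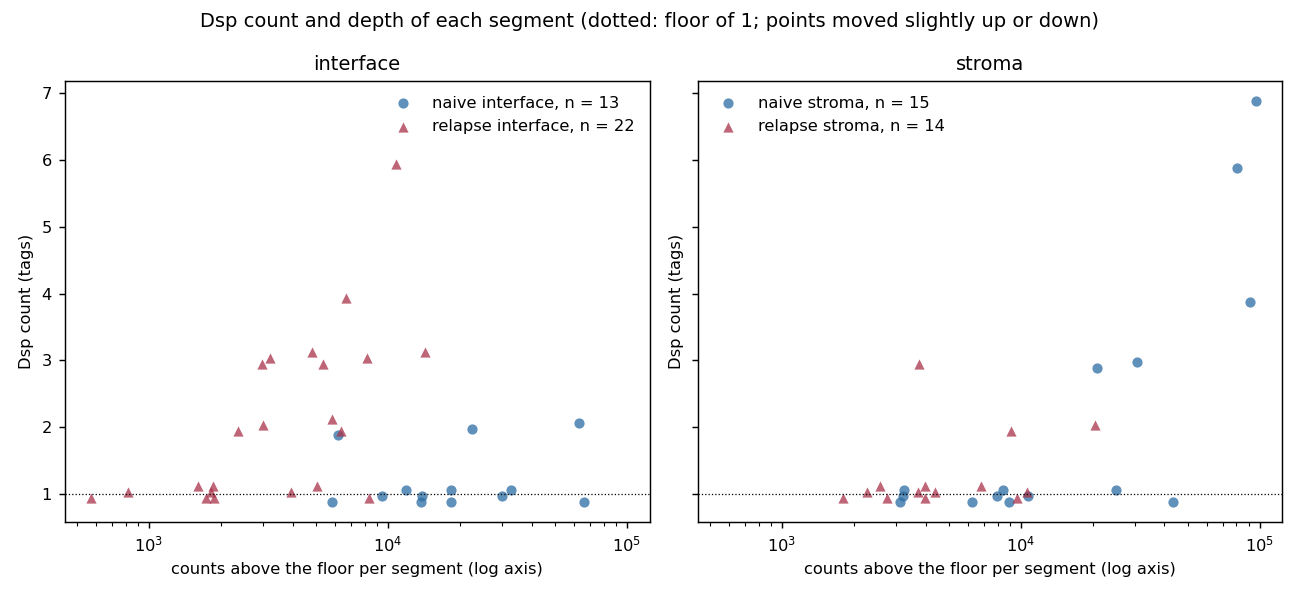
Dsp tag count against the counts above the floor of each segment (log axis), for interface segments on the left and stroma segments on the right, in naive (circles) and relapse (triangles); the dotted line is the floor of 1. Relapse interface segments reach counts of 3 to 6 at depths of 2976 to 14294, and no naive interface segment, at 5831 to 66166, exceeds 2. Some of those relapse segments are shallower than every naive interface segment.

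Differences between classes were tested with limma on log2(signal + 1), with 1 mean per class and log2 depth as a covariate, and p-values were adjusted over the 5087 targets. In relapse interface against naive interface 1 of the 6 genes was called, while 1.45% of all tested targets were called. Dsp was higher by 1.15 (SE 0.206, 95% interval 0.74 to 1.55, adjusted p = 4.6e-05), where the median difference over all tested targets was 0.13. On this scale a count at the floor is itself higher in shallow segments: the floor's mean log2(signal + 1) was 2.18 in relapse interface and 1.44 in naive interface, a difference of 0.74, of which 0.09 was left once log2 depth was in the fit. Most Dsp values lay at that floor, and its log2 signal had an r of -0.43 with log2 depth over the 89 segments. The other 5 were not called: Krt1 differed by 0.66 (SE 0.379, adjusted p = 0.425), Lgals7 by 0.55 (SE 0.280, adjusted p = 0.358), Sfn by 0.65 (SE 0.214, adjusted p = 0.1001), Perp by 0.35 (SE 0.212, adjusted p = 0.464) and Krt10 by -0.24 (SE 0.338, adjusted p = 0.799). The Dsp call was lost without naive piece 4, which holds 8 of the 13 naive interface segments (1.02, adjusted p = 0.116), and on counts per 10000 with the depth covariate (adjusted p = 0.0666). Naive interface lay on plate G and relapse interface on plate H, so plate cannot be told apart from stage here.

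The difference between interface and stroma also differed between the stages for 1 of the 6 genes, again Dsp, while 3.54% of all tested targets were called in that interaction. Its interaction term was 0.98 (SE 0.269, adjusted p = 0.0207), against a median of 0.16 over all tested targets and 0.06 for the floor fitted in the same way. Neither of the differences that form it was called: Dsp was 0.55 higher in relapse interface than in relapse stroma (SE 0.180, p = 0.0028, adjusted p = 0.999) and 0.44 lower in naive interface than in naive stroma (-0.44, SE 0.199, p = 0.0299, adjusted p = 0.149). The interaction's call was lost on counts per 10000 without and with the depth covariate (0.93 and 0.98, adjusted p = 0.458 and 0.474). It was also lost without naive piece 2 (0.92, adjusted p = 0.0538), naive piece 4 (0.85, 0.252), relapse piece 1 (0.92, 0.162) or relapse piece 3 (1.15, 0.0837), so the term kept its sign and about its size. With tissue piece as a fixed block, which compares segments within pieces, it was 0.82 (SE 0.349, adjusted p = 0.473), and limma called 0 of 5087 targets, with 447 at p under 0.05. The other 5 terms, between 0.30 for Sfn and 0.63 for Krt1, were all above 0 and not called. Of all tested targets 68.6% were above 0 there.

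Within the naive slide none of the 6 genes was called by limma. In interface against stroma, 10.7% of all tested targets were called and 518 of those 546 were lower. All 6 differences were below 0, from -0.04 for Lgals7 to -0.44 for Dsp, where only 31.4% of all tested targets were above 0. The median of the 6 was -0.17, against -0.14 over all tested targets, and 1 of the 6 had p under 0.05 (Dsp). Compared within tissue pieces, with piece as a fixed block, 15 of the 5087 targets (0.295%) were called there, 14 of them among the 546, and Dsp differed by -0.26 (SE 0.282, adjusted p = 0.771). In within tumour against stroma 4.05% of targets were called (0.197% within pieces), and the 6 ran from -0.30 for Perp to 0.23 for Sfn, with 0 at p under 0.05. In within tumour against interface 0% of targets were called, 369 of 5087 had p under 0.05, and so had 2 of the 6: Dsp at 0.57 (SE 0.214, p = 0.0082, adjusted p = 0.459) and Sfn at 0.54 (SE 0.223, p = 0.0166, adjusted p = 0.553).

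In relapse interface against relapse stroma none of the 6 was called by limma and 0% of all targets were, with 122 targets, and of the 6 only Dsp, at p under 0.05. Krt1 differed by 0.54 (95% interval -0.11 to 1.20) and Lgals7 by 0.32 (-0.16 to 0.80), so differences of either sign remain within their intervals. Sfn differed by -0.01 (-0.37 to 0.36).

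Among stroma segments no gene of the 6 was called between stages. Acute against naive, where 0.118% of targets were called, gave 0.52 for Krt1 (SE 0.413, adjusted p = 0.668 by limma), and within plate G alone, which holds 4 of the 9 acute segments, 1.18 (SE 0.507, adjusted p = 0.999); none of the 6 had p under 0.05 with all segments. Relapse against naive, where 1.61% were called, gave -0.55 for Krt10 (95% interval -1.21 to 0.11) and 0.35 for Sfn (-0.07 to 0.77), with none at p under 0.05. Relapse against acute, where 0.983% were called, had 2 of the 6 at p under 0.05: Krt10 at -0.87 (SE 0.406, p = 0.033, adjusted p = 0.402 by limma) and Sfn at 0.59 (SE 0.257, p = 0.0221, adjusted p = 0.330 by limma). Within plate H alone these were -0.42 and 0.74, and Krt1 went from -0.49 to 0.31. Comparisons that use the same stroma or interface segments share them, so their values are not independent of each other.

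**Figure D4:**
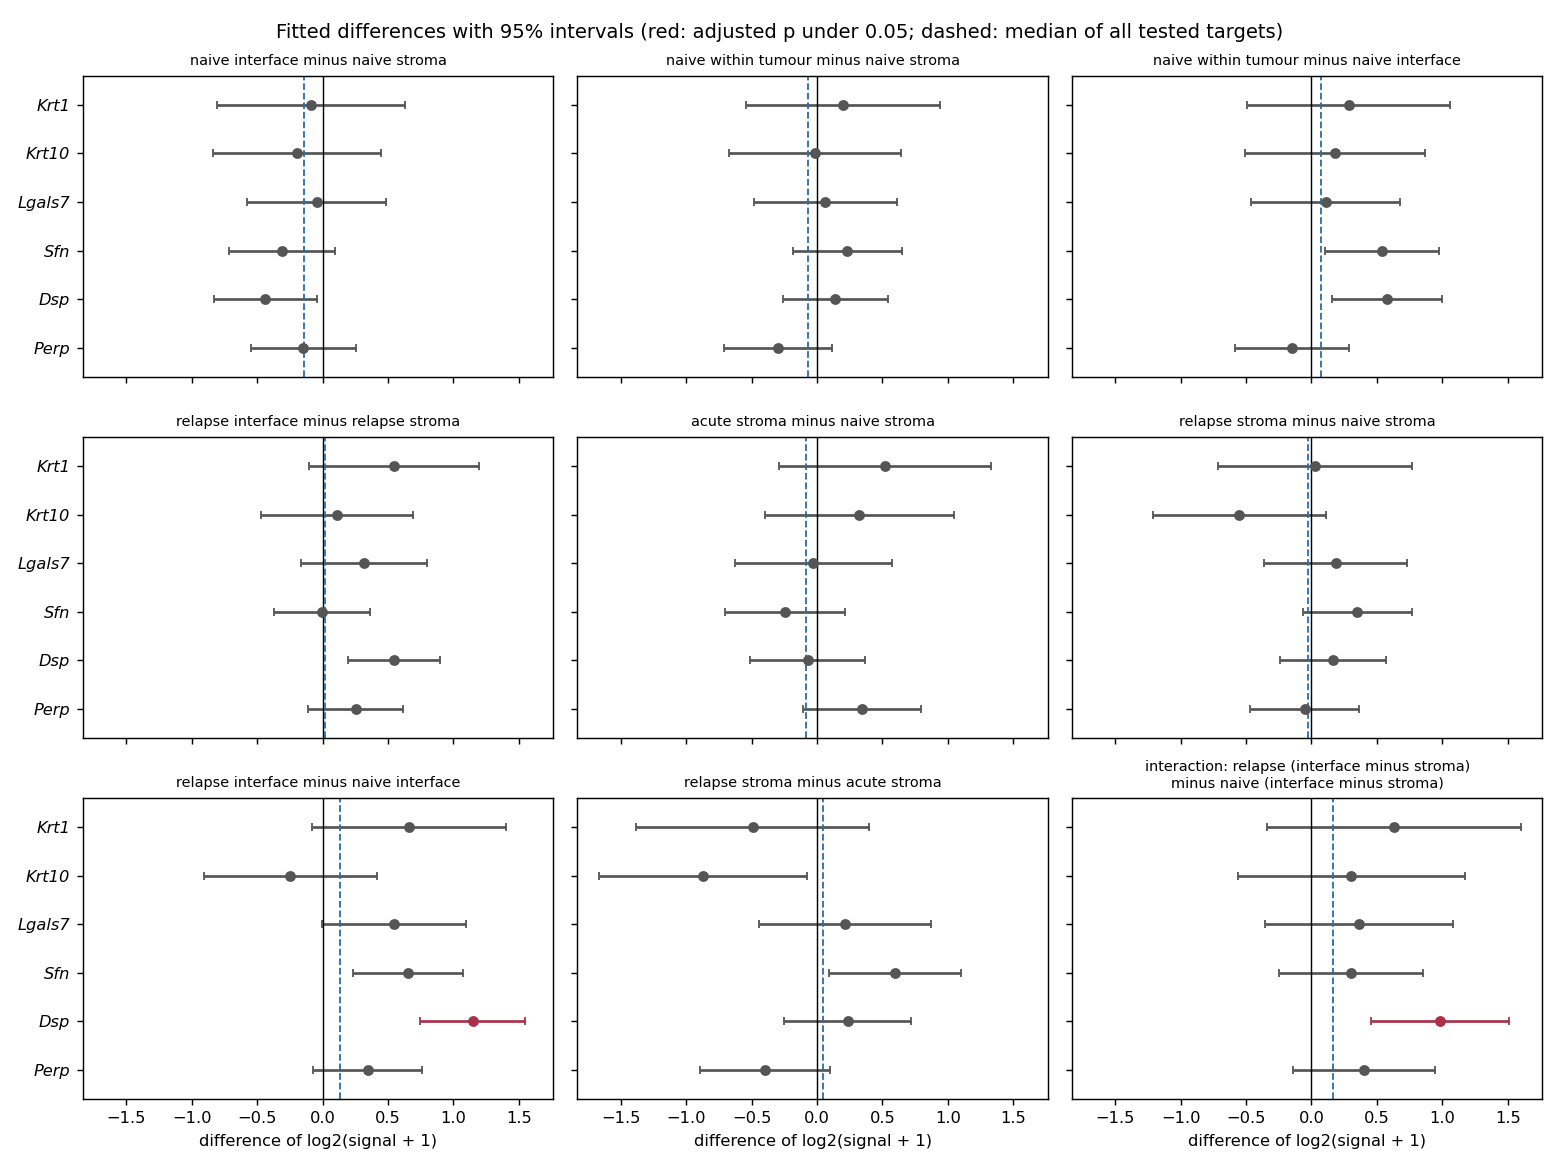
Fitted differences of log2(signal + 1) for each gene in the 9 comparisons, with 95% intervals from limma; red marks an adjusted p under 0.05 and the dashed line the median of all tested targets. Dsp is red in relapse interface minus naive interface (1.15) and in the interaction (0.98), and no other gene is red in any comparison.

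Other genes of the same programmes were read from lists. Of 46 cornified envelope and late differentiation genes on the panel 27 were tested, and 3 rose in relapse interface against naive interface: Fabp5, a fatty acid carrier of keratinocytes, by 1.92 (SE 0.375, adjusted p = 0.000318 by limma), Krtdap, a small protein of differentiating keratinocytes, by 0.98, and Tgm3, a transglutaminase that crosslinks the envelope, by 0.78. The median over the 27 was 0.32, against 0.13 over all tested targets. In relapse stroma against acute stroma 2 of the 27 rose, Fabp5 by 1.75 and the envelope precursor Sprr1a by 1.47, and in naive interface against naive stroma 1 was lower, Sbsn at -0.59. Of all tested targets 1.45%, 0.983% and 10.7% were called in these 3 comparisons, so the single lower call is below the background. In the other 6 comparisons none of the 27 was called.

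Of the 17 other desmosome genes on the panel only Jup, which encodes plakoglobin, was tested, so Dsp could not be set beside desmogleins, desmocollins or plakophilins. Jup differed by 0.49 in relapse interface against naive interface (SE 0.214, adjusted p = 0.257) and was called in none of the 9 comparisons. Of 20 adherens and tight junction genes 5 were tested, and Ctnnb1, which encodes beta-catenin, was lower in naive interface (-0.60) and within naive tumour (-0.70) than in naive stroma, where 10.7% and 4.05% of all targets were called. All 4 stress keratins (Krt6a, Krt6b, Krt16 and Krt17) rose in relapse interface against naive interface, with a median of 2.64, and in relapse stroma against naive stroma, with a median of 1.596, where 1.45% and 1.61% of all targets were called. Of 13 basal and hemidesmosome genes 5 were tested, and in both comparisons only Krt5 and Krt14 were called. All 5 were above 0 in the interface comparison (median 0.48). In the stroma comparison only those 2 were above 0 (median -0.07).

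Of 5 tested p53 target genes 1 was called in any comparison, Bax, an effector of apoptosis, which was lower in naive interface than in naive stroma (-0.64), which is near the background of 10.7% there. Of the other adaptor genes of Sfn's family 2 were tested, and Ywhae was lower in naive interface (-0.78) and within naive tumour (-0.76) than in naive stroma. Of the other galectins 2 were tested, and Lgals1, a galectin abundant in fibroblasts and other stromal cells, was lower in naive interface (-1.64), within naive tumour (-1.48) and in relapse stroma (-1.30) than in naive stroma. Fibroblast markers moved with it: 7 of 7 tested were lower in naive interface than in naive stroma, with summed levels of 5.77 to 329.8 per 10000 (median 14.7) against 14.5 to 361.6 (median 196.6). Of the differentiation regulators, Maf, which macrophages also express, was lower in naive interface (-0.61) and within naive tumour (-0.71) than in naive stroma. Of 9 macrophage markers 7 were lower in naive interface than in naive stroma. Beside these counts stand the 10.7% of all targets called in that comparison and the 4.05% within tumour. Compared within tissue pieces, Col1a2 (-1.86) and Col3a1 (-2.13) of the fibroblast markers were called in naive interface against naive stroma, while Bax, Ywhae, Lgals1, Maf, Ctnnb1, Sbsn and all macrophage markers were not.

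Markers of several cell types, basal keratinocytes among them, moved with the Dsp difference. In relapse interface against naive interface both tested basal keratinocyte markers (Krt5 and Krt14) rose, and the summed level of the 5 on that list ran from 0 to 178.1 per 10000 (median 64.1) in relapse interface and from 0.546 to 19.4 (median 3.34) in naive interface. Of 4 tested B and plasma cell markers 3 rose (Ighm, Igkc and Jchain), with summed levels of 0 to 569.8 against 1.62 to 6.86. Fibroblast, macrophage, muscle, endothelial and T cell markers had no called member in relapse interface against naive interface. The same was true of the neutrophil markers, of which 2 were tested, and the melanocyte list had none tested. In the interaction that called Dsp, 6 of 7 fibroblast and 2 of 9 macrophage markers were called higher as well. Their medians were 2.30 and 0.81. So were 1 of 2 tested basal keratinocyte markers (median 1.38) and 1 of 4 stress keratins (median 1.04). In that interaction 3.54% of all targets were called, and none of these markers was called within tissue pieces. In naive interface against naive stroma, 1 of the 2 basal keratinocyte markers was called lower, where 10.7% of all targets were called. The part of these cells in the Dsp differences was not tested.

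The targets whose level across the 89 segments was most like the mean of the 6 genes were Krt14 (r = 0.596), Dynll1 (0.5001), Cstdc5 (0.491), Fabp5 (0.490), Krt6a (0.475) and Krt6b (0.459). Among the 6, the closest pair was Krt1 and Krt10 (r = 0.471, both above the floor in 46 segments), followed by Krt1 and Lgals7 (0.331) and Lgals7 and Dsp (0.301). Krt10 and Dsp had an r of -0.05. These correlations of log2 levels describe segments that share slides, pieces and depth, and at these counts the weak ones show little. With log2 depth itself, the r of these levels ran from -0.25 for Lgals7 to 0.13 for Perp, and that of log2 signal, the scale tested, from -0.43 for Dsp to 0.19 for Krt10.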

How the data were processed

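The authors deposited normalised signal per target and segment and, for each segment, an upper-quartile normalization factor, which is a ratio, and negative-probe values, per the file headers. Signal times factor was whole within 1e-06 for 99.986% of values, so counts were recovered this way, and 3 targets held values that were not. Seurat and mm10 are named in the submitters' processing notes; the aligner and the origin of the floor of 1 are not given in the sources used here. Depth is the sum of counts above the floor. A segment's limit of quantitation comes from its negative probes (geometric mean multiplied by the geometric SD squared, at least 2 counts); targets above it in at least 10% of segments were tested. Because the values are normalised, limma 3.58.1 (lmFit, eBayes with trend, two-sided, R 4.3.3) was fitted on log2(signal + 1) over all 89 segments, with 7 class means and log2 depth, and Benjamini-Hochberg adjustment at 0.05; fold changes of low targets are understated on this scale. The fit was tested on simulated data. In relapse interface against naive interface it called 42% of 100 targets made 4-fold higher there and 2% of 100 made 4-fold lower. These targets were drawn only from the more abundant of the tested ones. The rates therefore need not hold for genes mostly at the floor, such as Dsp, Sfn and Perp. A gene without a call, above all a lower one, may therefore still differ. Acute interface, with 2 segments, was not tested. Tissue pieces were split where coordinates had a gap above 10000, and were entered as a random block, as a fixed block and left out in turn as alternatives. Related genes are named by list, at most 4 called ones of smallest adjusted p for each list and comparison, and the 6 most similar targets by Pearson correlation over segments. The 6 genes and all lists were chosen with earlier results of these data known. The list of differentiation regulators is given in part, and the rest of it is not reported here. The promoter letters come from RefSeq, GRCm38.p6.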

Additional observations from a re-analysis of the deposited data

Results flagged for a closer look

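In acute stroma, 1 of 9 segments stood apart for Krt1, at 19.6 counts per 10000 with a median of 2.96, and the same segment, with 3054 counts, was the highest for Lgals7, at 3.27 per 10000 with a median of 0.944. For Lgals7 this is a count of 2. Such a gap was looked for in 6 sets of values. Chance alone gives one in about 1 of 20 sets when values are normally distributed and equally precise. These levels come from segments of 2110 to 208675 counts, so that rate need not hold here and was not worked out for them. The difference between interface and stroma differed between relapse and naive for Dsp, by 0.98 on the log2(signal + 1) scale (SE 0.269, adjusted p = 0.0207 by limma's interaction term), and by 0.82 (SE 0.349, adjusted p = 0.473) when segments were compared within tissue pieces.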

How the results depend on the processing

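Of 138 recomputed counts of called genes over the 9 comparisons, 128 kept the reported count, and no called difference changed sign. The changes were all in the comparisons that called Dsp. In every other comparison the reported count was 0 and stayed 0. Most of the 128 are of that kind, so they say little about how firm the Dsp calls are. In relapse interface against naive interface the count went from 1 to 2 without the depth covariate, where Sfn was also called (0.59, adjusted p = 0.0330), to 0 on counts per 10000 with the depth covariate, and ranged from 0 to 1 when a tissue piece was left out. In the interaction it was 0 on counts per 10000 without and with the depth covariate, 0 with tissue piece as a fixed block, and 0 to 1 when a piece was left out. Across the alternatives to both calls Dsp stayed above 0. Adding 0.1 in place of 1, no filter, a random block for tissue piece, only the classes compared and leaving out segments under 2000 counts changed neither count. Of 828 recomputed differences of single genes, 85 changed sign with neither value called. A count model was planned and not run: read with 1 step for all segments the deposited signal did not pass as whole reads, while with each segment's own factor 99.986% of values were whole. In simulated counts with no difference between classes the fit still called targets in naive interface against naive stroma, in acute against naive stroma and, in smaller number, in relapse interface against naive interface, where Dsp was called, so calls there can be false. The largest numbers in 10 draws were 152, 28 and 2 of 5087 targets, where the data gave 546, 6 and 74 calls. Without the depth covariate the largest numbers were 106, 29 and 2862. The keratin shares without each piece, and over segments with at least 10 keratin counts, and the fixed block for tissue piece were added after seeing the data. No paired analysis was possible because no label pairs segments. Tissue pieces that hold several classes allowed a comparison within pieces, by the fixed block, for the 5 comparisons that stay within stages. Depth limits all of this: at the median depth of relapse interface, 1 count is 2.80 per 10000.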
